A study of Mus musculus with 10 samples.

Results

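Chromatin accessibility at the promoters of cytosolic ribosomal protein genes was compared in group 2 innate lymphoid cells (ILC2s) from 5 mouse tissues, namely lung, pancreas, bone marrow (BM) and the small (SI) and large (LI) intestine. A region of the ATAC-seq count table was taken when its centre lay within 1 kb of a RefSeq start of a protein-coding gene whose symbol is Rpl or Rps followed by a digit, or Rplp0, Rplp1, Rplp2 or Rpsa, without the Rps6k kinase genes and pseudogenes. This gave 90 of 50039 regions. Of 89 genes with such a symbol 83 had a region, and 7 of these had 2, among them Rps12, Rpl18, Rpl19, Rpl36 and Rpl35. The other 6 genes, Rpl10l, Rpl32l, Rpl39l, Rpl3l, Rps23rg1 and Rps27rt, had none and are paralogs or retrocopies. Proteins of the ribosomal subunits, counted without paralogs and retrocopies, accounted for 77 of the genes, all 77 with a region, and for 84 of the regions. The remaining regions belonged to Rpl7l1, Rpl22l1, Rpl36al, Rpl37rt, Rps27l and Rps19bp1. These were counted apart as paralogs, a retrocopy (Rpl37rt) or another protein (Rps19bp1).

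Ribosomal proteins assemble with ribosomal RNA into a small and a large subunit, named Rps and Rpl after the subunit they join. Cells make them in nearly equal numbers, and their genes have short, GC-rich promoters that are open in almost every cell type. Many of their mRNAs begin with a C followed by an uninterrupted run of C and T, the terminal oligopyrimidine tract, through which mTOR signalling and the protein Larp1 set their translation. ILC2s are tissue-resident lymphocytes that secrete type 2 cytokines such as IL-5 and IL-13.

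Each tissue had 2 libraries, made from 50000 sorted ILC2s of wild-type male C57BL/6 mice aged 6 weeks. Each intestinal library pooled 10 mice and each of the others 16, so a library is a pool and not an animal. The sort gate was Lin- ST2+ CD25+ for BM. For LI, lung and pancreas CD45 and CD127 were added, and for SI the gate used CD127, CD45, KLRG1 and Thy1, at a level that the labels call intermediate and the methods low, in place of ST2 and CD25. BM cells were flushed from bone, whereas the other tissues were digested with enzymes. Gate, dissociation, pool size and tissue cannot be told apart in this design. The libraries held between 10282987 and 32797872 counts, and the median count over the 90 regions lay between 320 (pancreas replicate 2) and 1531 (lung replicate 2). All 90 regions passed the minimum of 1 count, the lowest with 812 counts over the 10 libraries. The ILC2 markers had a promoter region for 10 of 10 genes, with a summed level of 300 to 459 CPM (counts scaled to library size with TMM factors) in the libraries.

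Region widths ran from 500 to 1283 bp around a median of 575.5 bp. The centres lay a median of 104.5 bp from the nearest start and at most 983.5 bp from it, and 79 regions spanned a start. By the RefSeq models the centre fell in an exon for 30 regions, in an intron for 22 and outside the gene for 38. The median GC content was 60.99%, against 62.54% in the 13990 other regions within 1 kb of a start and 49.81% in all regions. For 18 regions of 17 genes another protein-coding gene also started within 1 kb of the centre (Vps52 beside Rps18, Ndufa7 beside Rps28 and Lrsam1 beside Rpl12), and accessibility there cannot be assigned to either gene.

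The bases around the start are shown for the 3 matched regions with the smallest p over the tissues (Rps15, Rps2 and Rpl19) and for 3 of the most even ones (Rpl22l1, Rps23 and Rpl15), so that regions that were called over the tissues and regions that were not can be read side by side. Each stretch runs on the strand of the gene from 80 bases before to 20 bases after the RefSeq start (GRCm38.p6, equal to mm10 in coordinates). Capitals mark the letters CCGGAAG, the core bound by ETS factors such as GABP, and a pyrimidine tract. The tract is read from a C within 5 bases of the start, even where the run of C and T begins further upstream. In Rpl19 the marked bases end a longer run and lie wholly before the start.
Rps15 (chr10:80292351-80292450, plus strand): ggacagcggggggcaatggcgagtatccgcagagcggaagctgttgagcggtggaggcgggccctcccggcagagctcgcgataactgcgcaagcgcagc
Rps2 (chr17:24719983-24720082, plus strand): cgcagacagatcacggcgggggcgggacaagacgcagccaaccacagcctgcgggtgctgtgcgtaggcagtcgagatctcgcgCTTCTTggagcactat
Rpl19 (chr11:98026844-98026943, plus strand): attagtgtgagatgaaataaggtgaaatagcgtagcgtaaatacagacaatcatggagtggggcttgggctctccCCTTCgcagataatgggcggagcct
Rpl22l1 (chr3:28805428-28805527, plus strand): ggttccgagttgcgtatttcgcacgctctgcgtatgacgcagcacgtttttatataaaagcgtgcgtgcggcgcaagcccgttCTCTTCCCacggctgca
Rps23 (chr13:90923042-90923141, plus strand): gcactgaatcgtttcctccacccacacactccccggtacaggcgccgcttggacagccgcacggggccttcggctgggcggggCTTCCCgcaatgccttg
Rpl15 (chr14:18270967-18271066, minus strand): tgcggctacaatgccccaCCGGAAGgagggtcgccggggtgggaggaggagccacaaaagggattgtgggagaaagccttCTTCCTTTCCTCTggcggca

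Over the 67 RefSeq promoters of 57 subunit protein genes, 43.3% had a pyrimidine tract at the start, against 18.3% of all 32851 promoters. CCGGAAG on either strand was found in 37.3% of the 300-base promoters and in 8.86% of all promoters. AAGATGG, the core of the YY1 motif, was found in 16.4% against 6.34%, and GGGCGG, the core of the SP1 motif, in 61.2% against 35.7%. TATAAA was rarer than in all promoters, at 8.96% against 13.6%, and CCAAT stood at 31.3% against 37.4%. The NRF1 motif was found in 2.99% against 0.971%. These are matches of letters and no test was made on them.

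As a group the regions were more accessible than most. Their median level over the 10 libraries was 39.5 CPM, against 23.1 CPM for the other regions within 1 kb of a start and 7.33 CPM for all tested regions. Among the 5 genes with the highest level per region were Rps29 at 187 CPM per kb of region, a small zinc-binding protein of the small subunit, Rps19 at 164, whose loss of function underlies Diamond-Blackfan anaemia, Rpl13a at 158 and Rpl37 at 150. The 5 genes with the lowest level per region were the retrocopy Rpl37rt at 7.52 CPM per kb, the X-linked Rps4x at 20.6, Rpl19 at 31.9, Rpl4 at 32.2 and Rpl23a at 35.0. Per kb the wide region of Rpl6, at 18.7 CPM per kb, was lower than that of Rps4x. Most ribosomal protein genes have processed pseudogenes elsewhere in the genome and only uniquely mapped reads were counted, so a level is uncertain where the region reaches into sequence shared with a copy.

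The regions differed between tissues, and BM stood highest. Among the 90 regions 42 (46.7%) had an adjusted p under 0.05 in the test over the 5 tissues with edgeR's quasi-likelihood fit, and 53 an unadjusted p under 0.05. The same call was made for 44.2% of all regions, which is close to that share, and for 29.2% of the regions within 1 kb of a start. BM had the highest mean in 79 of the 90, whereas this held for 46.9% of the other regions near starts. LI had the lowest mean in 55 regions, SI in 17 and pancreas in 13, whereas LI was lowest in 27.3%, SI in 17.1% and pancreas in 29.3% of the other regions near starts. Both BM libraries lay above the other 8 libraries in 43 of 90 regions, a pattern found in 13.1% of all regions and in 21.8% of those within 1 kb of a start. Both LI libraries lay below the other 8 in 15 of the 90 regions. In the other regions near starts this held for 835 of 13990, and the share over all regions is not given here. In such sorted pools a smaller fraction of cells with open promoters and a lower accessibility per cell cannot be told apart.

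The spread between tissues was small. The SD of log2 CPM over the 5 tissue means had a median of 0.29 over the regions. The median SD of single libraries between replicates was 0.20, and the former exceeded the latter in 74 of 90. A mean of 2 libraries varies less than a single library, so the 2 SDs are not on the same scale. Replicates of 2 tissues were displaced from each other over the whole group. BM replicate 1 was higher than replicate 2 in 69 of 90 regions, with a median log2 difference of 0.26, and SI replicate 1 was higher in 18, with a median of -0.32. In lung, LI and pancreas the medians were -0.07, -0.02 and 0.07. Without BM replicate 1 the count of 42 fell to 7. It was 22 without LI replicate 1, 23 without LI replicate 2, 26 without either lung library and 24 without pancreas replicate 2.

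**Figure D1:**
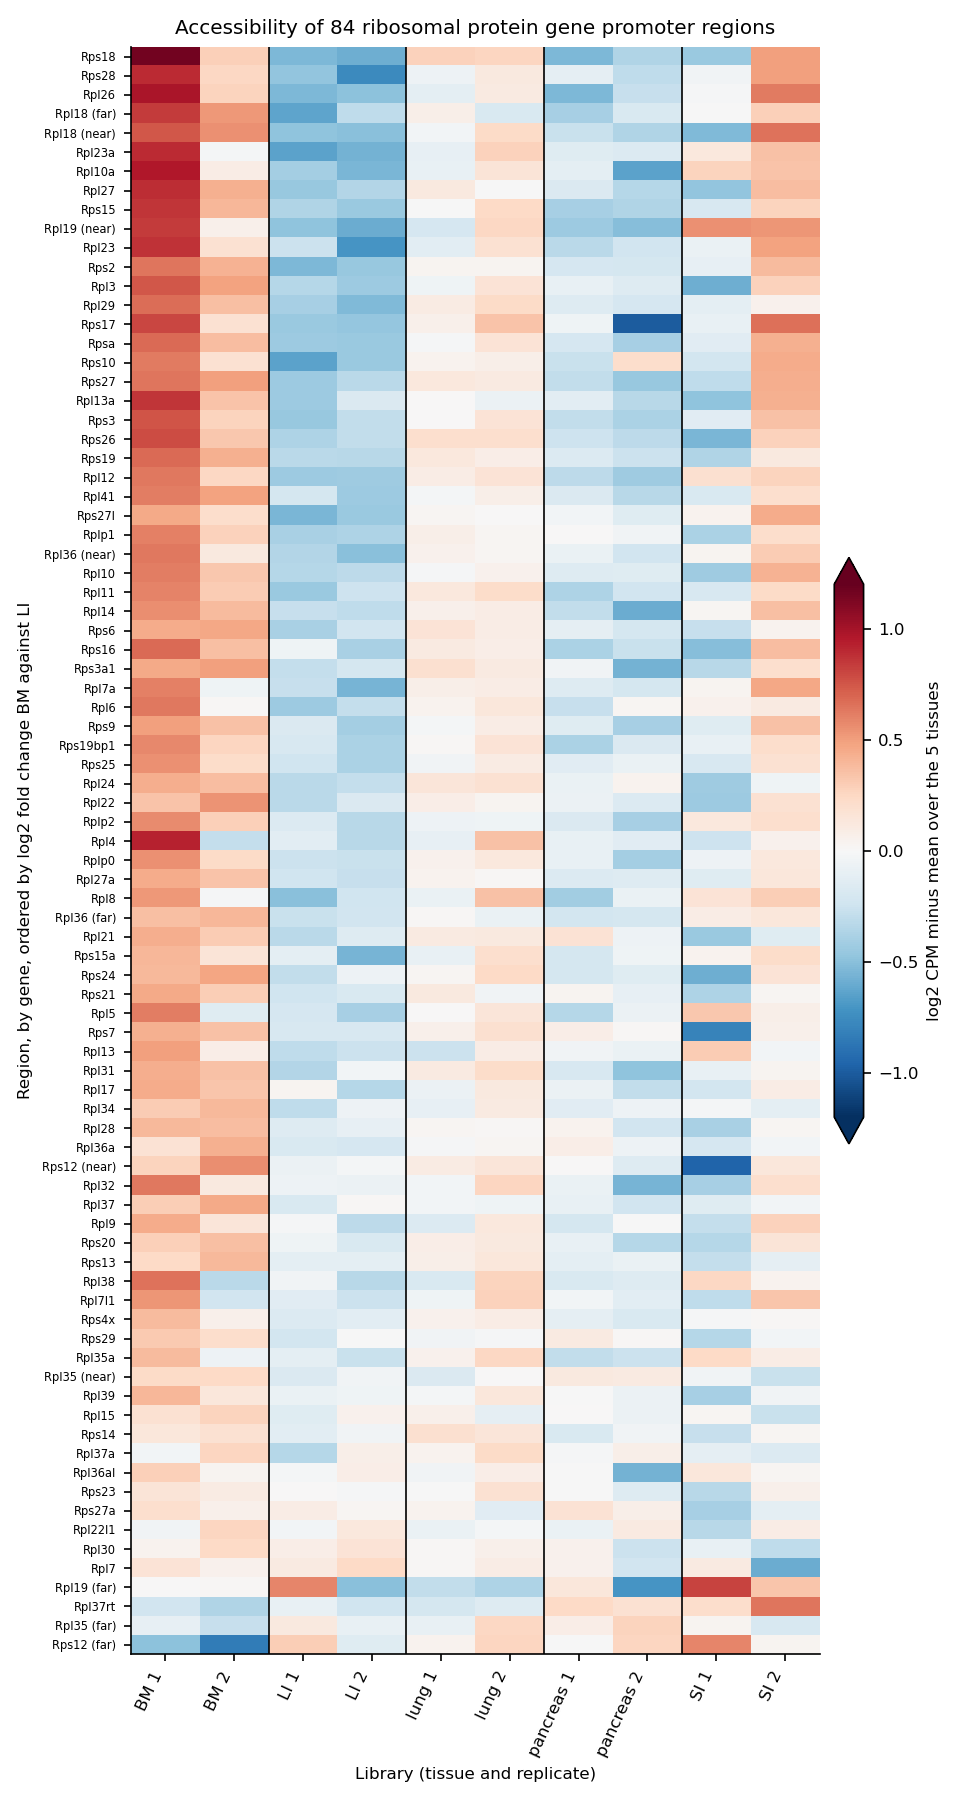
Log2 CPM of 84 of the 90 regions (rows, by gene, from the largest to the smallest log2 fold change of BM against LI) in the 10 libraries (columns), minus the mean over the 5 tissues. Of 2 regions of a gene, near is the one whose centre is closer to a start. BM columns are red and LI columns blue over most rows, SI replicate 1 is lower than SI replicate 2 in most rows, and the far region of Rps12 at the bottom runs the other way.

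The largest contrast was BM against LI, and every region called in it was higher in BM. Of the 90 regions 54 (60.0%) were higher in BM and 0 lower, with a median log2 fold change of 0.65. The background of regions higher in BM was 12.6% of all regions and 22.1% of those within 1 kb of a start, whose median without the 90 was 0.25. Log2 fold changes of the 90 ran from -0.80 to 1.35 and 83 of them were above 0. The count was 12 without BM replicate 1, 30 without LI replicate 1 and 26 without LI replicate 2, and the median lay between 0.55 and 0.76 when any 1 library was left out.

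The region with the largest difference was that of Rps18 (chr17:33955558-33956140), a protein of the head of the small subunit. It measured 82.1 and 44.9 CPM in BM, 27.1 and 51.8 in SI, 25.4 and 28.7 in pancreas, 44.5 and 44.0 in lung and 25.3 and 24.6 in LI. LI and pancreas were low, and the lower BM library lay close to lung and under the higher SI library. Its log2 fold change of BM against LI was 1.35 ± 0.29 (SE, n = 2 libraries each, edgeR adjusted p = 0.00246). Without BM replicate 1 it was 0.85 and no longer called. Rps15 (chr10:80292248-80292785), a small subunit protein at the decoding site, measured 59.0 and 43.2 CPM in BM, 28.6 and 39.2 in SI, 24.8 and 25.5 in pancreas, 32.5 and 38.6 in lung and 25.4 and 24.1 in LI. Both BM libraries were above all others, and LI and pancreas did not separate. The log2 fold change was 1.05 ± 0.22 against LI (edgeR adjusted p = 0.00195) and 1.02 ± 0.22 against pancreas (adjusted p = 0.00328).

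Rpl18 had 2 regions, and both were high in BM. The region at chr7:45715022-45715598, at a predicted start of Rpl18 and a start of Sphk2, had the smallest p over the tissues (edgeR adjusted p = 0.00172). It measured 72.1 and 57.5 CPM in BM, 39.9 and 49.0 in SI, 30.4 and 35.4 in pancreas, 42.1 and 35.3 in lung and 25.9 and 32.5 in LI. BM was above all other libraries, with a log2 fold change of 1.15 ± 0.21 against LI (adjusted p = 0.00073). The region at the curated start of Rpl18 (chr7:45717726-45718282), which also has a start of Sphk2 within 1 kb, measured 49.8 and 43.4 CPM in BM, 21.2 and 21.0 in LI and 20.6 and 46.5 in SI, with a log2 fold change of 1.14 ± 0.28 against LI (adjusted p = 0.00612).

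Rps2, another decoding-centre protein, measured 84.9 and 72.7 CPM in BM, 50.8 and 70.7 in SI, 47.3 and 46.9 in pancreas, 55.8 and 55.6 in lung and 37.5 and 39.7 in LI (chr17:24719642-24720175). Its BM libraries were the highest and its LI libraries the lowest, with a log2 fold change of 1.03 ± 0.19 (edgeR adjusted p = 0.000984). Rps19 was also highest in both BM libraries, at 151 and 126 CPM against 75.2 and 74.6 in LI, but its lowest library was SI replicate 1, at 72.8 CPM. The large subunit proteins Rpl29, Rpl12 and Rpl26 were also among the 10 regions with the smallest p over the tissues. Rpl12, part of the base of the stalk that recruits elongation factors, measured 38.3 and 29.5 CPM in BM and 18.3 and 18.5 in LI, a log2 fold change of 0.88 ± 0.20 (adjusted p = 0.00383). Rpl29 measured 45.2 and 36.4 in BM and 21.6 and 19.7 in LI (0.99 ± 0.20, adjusted p = 0.00153). Rpl26, which also binds the mRNA of p53, measured 39.1 and 23.8 CPM in BM and 13.6 and 14.1 in LI (1.18 ± 0.27, adjusted p = 0.00358). Without BM replicate 1 neither Rpl12 (0.68) nor Rpl26 (0.78) was called.

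**Figure D2:**
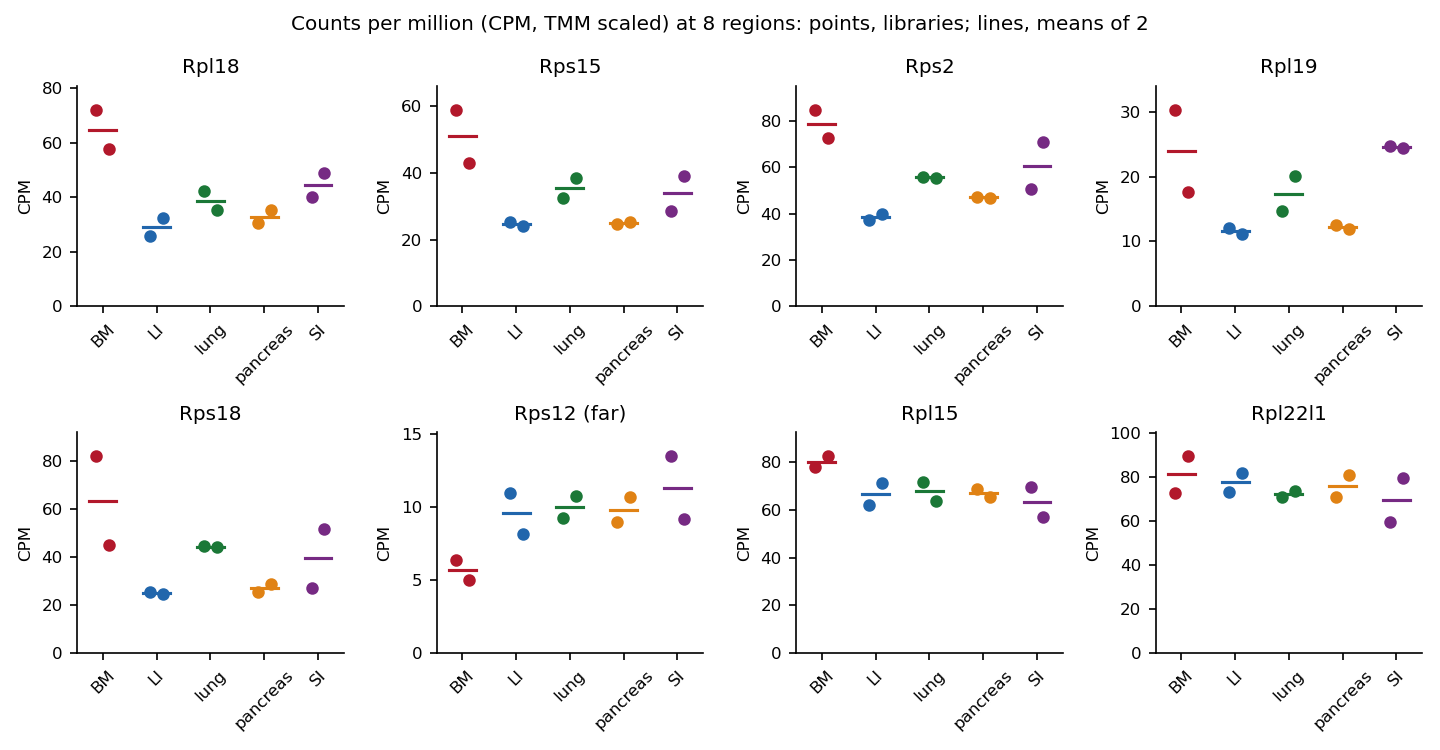
CPM (y axes, linear from 0) of 8 regions in the 5 tissues (x axes), with 1 point per library and a line at the mean of the 2. Rpl18 is the region at the predicted start, and Rps12 (far) is the intronic region. Rpl18, Rps15 and Rps2 are highest in both BM libraries, Rpl19 is high in SI as well, Rps12 (far) is lowest in BM, and Rpl15 and Rpl22l1 are level.

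BM also differed from pancreas. The number of regions higher in BM was 37, against a background of 9.89% of all regions and 18.8% of those within 1 kb of a start, and 1 region was lower (background 14.3%). The median log2 fold change was 0.53, against 0.28 in the other regions near starts, and Rps18 again had the largest value (1.23 ± 0.29, edgeR adjusted p = 0.00614). The 38 calls fell to 0 without BM replicate 1, to 19 without pancreas replicate 1 and to 5 without pancreas replicate 2. With the libraries scaled on regions near starts the split of higher and lower regions was 8 and 2.

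Differences from lung and SI were smaller. Against lung only the Rpl18 region at the predicted start was called, higher in BM by 0.74 ± 0.20 on the log2 scale (edgeR adjusted p = 0.0161, background 7.56%), while 18 regions had an unadjusted p under 0.05. The median over the 90 was 0.32, against 0.13 for the other regions near starts, and 83 values were above 0. Without BM replicate 1 the median was 0.20. The count of calls was 0 without BM replicate 1 or lung replicate 2, 4 without BM replicate 2, 2 without LI replicate 2 and 10 without either SI library. Library size alone gave 0 higher and 1 lower in BM, and scaling on regions near starts gave 1 and 1.

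Against SI 14 regions were higher in BM and 2 lower, with backgrounds of 10.7% of all regions and 8.54% of those near starts for higher and 15.1% for lower. The median log2 fold change was 0.38, against 0.15 in the other regions near starts, and it was 0.25 without SI replicate 1 and 0.59 without SI replicate 2. Rps12 at its start (chr10:23786969-23787559) had the largest positive value, 0.73 ± 0.26 (edgeR adjusted p = 0.0479). It measured 76.2 and 93.2 CPM in BM but 32.4 and 69.7 in SI, where replicate 1 was low and replicate 2 close to the highest lung library at 69.8. The 16 calls became 1 without BM replicate 1, 8 without BM replicate 2, 9 without LI replicate 1, 8 without either lung library, 1 without SI replicate 1 and 39 without SI replicate 2. Split as higher and lower they were 0 and 3 with library size alone, 1 and 2 with scaling on regions near starts, and 2 and 2 with library size counted outside the regions that hold over 0.1% of a library. Across the 90 regions the log2 fold change of BM against SI rose with the level (Pearson r = 0.75, Spearman rho = 0.54, n = 90 regions that share the same libraries).

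**Figure D3:**
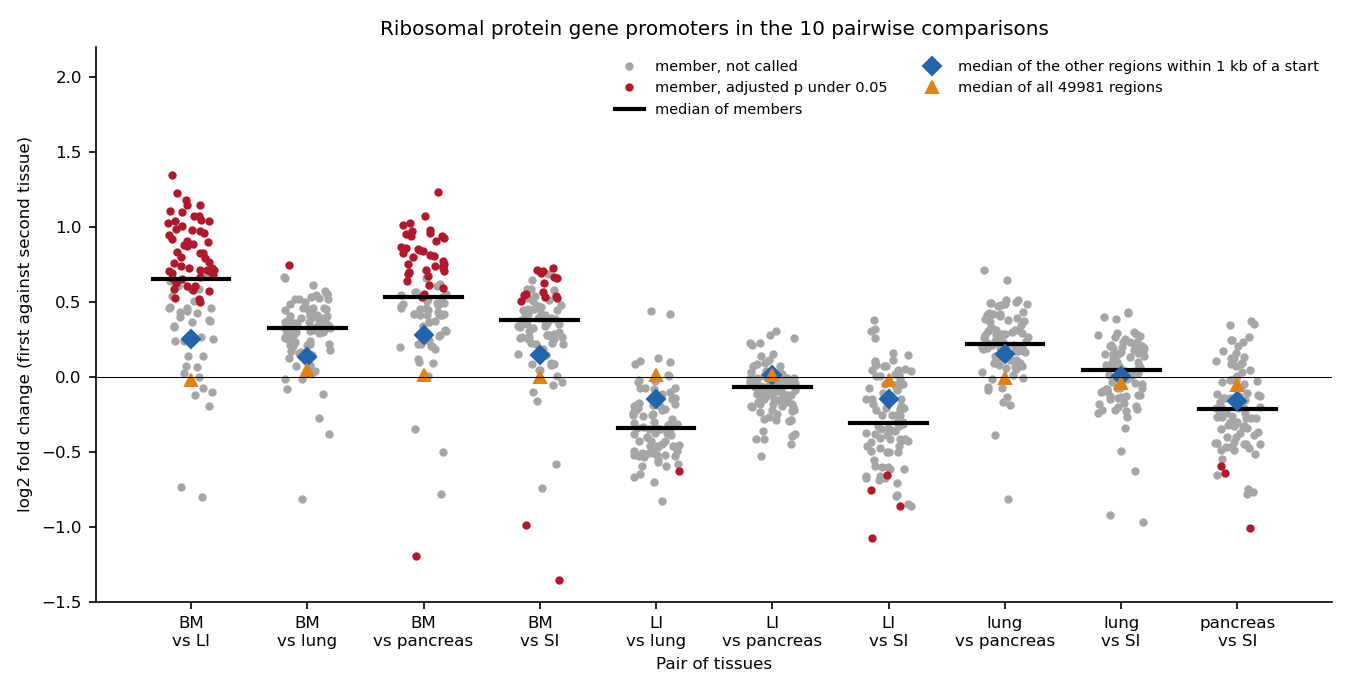
Log2 fold change (y axis, first against second tissue) of the 90 regions in the 10 pairs of tissues (x axis), with red points at an adjusted p under 0.05, a black bar at their median, a blue diamond at the median of the other regions within 1 kb of a start and an orange triangle at that of all regions. The black bars lie above the blue diamonds in the 4 comparisons of BM, from 0.32 to 0.65 against 0.13 to 0.28.

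Outside BM few regions were called. LI was lower than SI in 4 regions (background 1.53%), which were those of Rpl19, Rps28, Rps27l and Rps2. Rpl19 (chr11:98026658-98027220), a large subunit protein at a bridge between the subunits, measured 12.1 and 11.2 CPM in LI, 12.5 and 11.9 in pancreas, 14.7 and 20.1 in lung, 30.3 and 17.6 in BM and 24.7 and 24.4 in SI. SI was as high as BM here, while LI and pancreas were low. Its log2 fold change was -1.08 ± 0.26 for LI against SI (edgeR adjusted p = 0.0167) and -1.01 ± 0.26 for pancreas against SI (adjusted p = 0.0119), and the former was not called without either LI library. Pancreas was lower than SI in 3 regions, those of Rpl19, Rpl14 and Rpl12 (background 8.45%). LI was lower than lung in 1 region, that of Rpl29 (-0.63 ± 0.20, adjusted p = 0.0483, background 2.72%). Rps28 and Rpl14 are named here after their values were seen.

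These counts are small and moved with single libraries. For LI against SI the count was 7 without BM replicate 2, 0 without either LI library, 1 without either lung library, 2 without either pancreas library, 17 without SI replicate 1 and 2 without SI replicate 2. For pancreas against SI it was 5 without BM replicate 2, 1 without LI replicate 2, either lung library or pancreas replicate 1, 0 without pancreas replicate 2 and 10 without SI replicate 1. For LI against lung it was 5 without either SI library and 0 without any other. The medians over the 90 were -0.31 for LI against SI, -0.22 for pancreas against SI and -0.34 for LI against lung, beside -0.15, -0.16 and -0.15 in the other regions near starts. Without SI replicate 2 the median for LI against SI was -0.08 and that for pancreas against SI -0.022, and without SI replicate 1 they were -0.37 and -0.32.

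In the 3 remaining pairs edgeR called 0 regions. For LI against pancreas 0 regions had an unadjusted p under 0.05, DESeq2 also called 0, the median was -0.07 and the background was 3.27%. For lung against pancreas the median was 0.22, 7 regions had an unadjusted p under 0.05, the background was 5.82%, and DESeq2 called 0 when fitted to all 10 libraries but 1 when fitted to the 4 of the pair alone. For lung against SI, a pair in which 21% of all regions were called, the median was 0.05 (-0.040 without SI replicate 1 and 0.23 without SI replicate 2), 3 regions had an unadjusted p under 0.05 and DESeq2 called 0. That median was -0.0028 with library size counted outside the highest regions. Without SI replicate 1 lung against pancreas gave 1 call and lung against SI also 1, and without SI replicate 2 lung against SI gave 9.

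A stricter pattern, an unadjusted p under 0.05 in the same direction against each of the other 4 tissues, was met by 10 regions that were higher in BM, and by none that were higher in another tissue. The share was 4.5% of all regions and 6.02% of those within 1 kb of a start. The 10 included the regions of Rpl3, Rps19, Rpl18 at the predicted start, Rpl37, Rps15, Rpl41, Rpl13a and Rpl27. Rpl3, which lies close to the peptidyl transferase centre, measured 65.9 and 55.0 CPM in BM, 26.3 and 47.7 in SI, 37.0 and 35.4 in pancreas, 38.1 and 44.1 in lung and 31.1 and 29.1 in LI. BM did not overlap any other library. Rpl37 measured 100 and 112 CPM in BM and 70.0 to 82.6 elsewhere, smaller steps of 0.42 to 0.53 on the log2 scale. Rpl41, the shortest ribosomal protein, measured 90.5 and 82.6 CPM in BM and 43.7 to 68.0 elsewhere, while Rpl13a (143 and 100) and Rpl27 (123 and 89.3) each had an SI library, at 106 and 86.0, near or above the lower BM library. With an adjusted p in each contrast 0 regions met the pattern. The count of 10 was 2 without BM replicate 1, 20 without BM replicate 2, 1 without lung replicate 1, 3 without lung replicate 2, 1 without SI replicate 1 and 25 without SI replicate 2.

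The only region lower in BM by the same pattern was the far region of Rps12 (chr10:23785960-23786491; background 6.63%). It lies 983.5 bp downstream of the start in an intron, and it measured 6.36 and 5.02 CPM in BM, 13.5 and 9.16 in SI, 8.95 and 10.7 in pancreas, 9.21 and 10.7 in lung and 11.0 and 8.12 in LI. Both BM libraries were below the other 8. The log2 fold change against SI was -0.99 ± 0.28 (edgeR adjusted p = 0.0153), whereas the region at the start of the same gene was higher in BM than in SI. In the comparisons of BM both regions were called against SI alone. Over the 5 tissues neither was called (edgeR adjusted p = 0.0650 for the far region and 0.174 at the start). The far region was not called without BM replicate 2 or SI replicate 1, and the difference between the 2 regions was not tested. The count of 1 was 0 without BM replicate 2, LI replicate 1, lung replicate 2 or pancreas replicate 2, 3 without pancreas replicate 1 and 4 without either SI library.

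Regions that lay beside a start had smaller differences, which were not tested against the others. Of the 11 that did not span a start 2 were called over the tissues, with a median log2 fold change of BM against LI of 0.42, and of the 79 that spanned a start 40 were called, with a median of 0.68. Their median levels were 24.6 and 39.8 CPM. The background of calls over the tissues was 44.2% of all regions and 29.2% of those within 1 kb of a start.

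Some promoters had nearly the same level in all tissues and were not called. Among regions above the median level, Rpl22l1, a paralog of Rpl22, had the smallest SD between tissue means, 0.09 on the log2 scale. Its SD of single libraries between replicates was 0.18. It measured 72.7 and 89.3 CPM in BM, 59.5 and 79.4 in SI, 70.7 and 80.8 in pancreas, 70.8 and 73.7 in lung and 73.2 and 81.8 in LI. The groups overlapped throughout, and the log2 difference of BM from LI was 0.06 ± 0.19. Rps23, which carries a hydroxylated proline at the decoding centre, ranged from 34.5 to 49.2 CPM with an SD of 0.11. Rpl15 ranged from 57.3 to 82.6 CPM with an SD of 0.13, and Rpl30 from 53.7 to 78.4 CPM with an SD of 0.15. Rps29, the highest promoter, measured 122 and 113 CPM in BM and 77.2 to 106 elsewhere, which did not reach the threshold over the tissues (edgeR adjusted p = 0.235). Rps4x ranged only from 11.3 to 16.7 CPM.

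The 3 genes of the stalk were all higher in BM than in LI. Rplp0, the stalk base, measured 77.2 and 61.9 CPM in BM and 44.0 and 43.7 in LI, and its log2 fold change was 0.66 ± 0.19 (edgeR adjusted p = 0.0141). Rplp1, which binds Rplp0 as a dimer with Rplp2, measured 71.5 and 56.9 CPM in BM and 35.8 and 36.5 in LI (0.83 ± 0.21, adjusted p = 0.00698). Rplp2 measured 59.5 and 49.1 in BM and 35.8 and 31.9 in LI (0.68 ± 0.19, adjusted p = 0.0113). BM did not overlap LI in any of the 3. Rplp0 was not called without BM replicate 1 or either LI library, and Rplp1 was not called without BM replicate 1. Rpsa, which is also known as the laminin receptor, measured 81.8 and 66.0 CPM in BM, 46.5 and 69.0 in SI, 44.5 and 38.8 in pancreas, 50.8 and 57.3 in lung and 37.9 and 37.5 in LI, with a log2 fold change of 0.97 ± 0.21 against LI (adjusted p = 0.00263).

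Of the 6 regions of paralogs, a retrocopy and Rps19bp1, 2 were called over the tissues. The same call was made for 44.2% of all regions and 29.2% of those near starts. Rps27l, a p53-induced paralog of Rps27, measured 51.0 and 43.3 CPM in BM, 38.5 and 50.7 in SI, 36.6 and 33.9 in pancreas, 37.9 and 37.4 in lung and 25.5 and 27.4 in LI. Its lowest libraries were those of LI, with a log2 fold change of 0.83 ± 0.20 for BM against LI (edgeR adjusted p = 0.00454) and -0.75 ± 0.19 for LI against SI (adjusted p = 0.0238). Rps19bp1, a regulator of the deacetylase Sirt1, was higher in BM than in LI by 0.71 ± 0.21 (adjusted p = 0.0163). Rpl36al stood at 42.2 to 76.2 CPM, Rpl7l1 at 19.9 to 35.7 CPM and Rpl37rt at 3.04 to 6.10 CPM, and none of these was called. Rpl4 was high in BM replicate 1 alone. It measured 33.9 in BM replicate 1 and 14.2 to 22.8 CPM in the other 9 libraries, and without that library its log2 fold change of BM against LI turned from 0.67 to -0.054, as that of Rpl7l1 turned from 0.40 to -0.031. Rpl23a was likewise uneven in BM, at 34.4 and 18.2 CPM, with 11.9 and 12.5 in LI (1.11 ± 0.27, adjusted p = 0.00581). Without BM replicate 1 its log2 fold change was 0.58, and in BM against LI none of Rpl23a, Rps27l and Rps19bp1 was called, nor was Rps19bp1 without LI replicate 2.

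Medians were close between the subunits and between promoters with and without a pyrimidine tract. The 51 regions of large subunit genes had a median log2 fold change of BM against LI of 0.66, with 32 higher in BM. The 33 of small subunit genes had a median of 0.70, with 20 higher. The background of regions higher in BM than in LI was 12.6% of all regions and 22.1% of those near starts. Regions with another gene at the start had a median of 0.65, as had those without. Of the 64 regions matched to a RefSeq promoter, 28 had a pyrimidine tract at the start and 36 had none, and their medians were both 0.70. Over the tissues 15 of the 28 and 15 of the 36 were called, beside 44.2% of all regions and 29.2% of those near starts. With and without CCGGAAG the medians were 0.70 and 0.69. Rps15, without a tract, and Rps2, with one, were both among the largest differences. GC content was nearly unrelated to the difference of BM from LI, with a Pearson r of 0.14 and a Spearman rho of 0.04 over the 90 regions, which share the libraries. For BM against pancreas these were 0.27 and 0.11.

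The size of the BM difference depended on how the libraries were scaled. The medians over the 90 regions in the comparisons of BM kept their sign. With library size alone 0 regions were called higher in BM than in lung or SI, and 1 and 3 were called lower. Of all counts the 90 regions held 0.497% and 0.424% in BM, 0.351% and 0.447% in SI, 0.323% and 0.288% in pancreas, 0.414% and 0.430% in lung and 0.267% and 0.315% in LI. Over the same libraries, all regions within 1 kb of a start held 51.1% and 47.7% in BM, 46.2% and 49.3% in SI, 41.1% and 34.1% in pancreas, 49.9% and 50.0% in lung and 34.6% and 41.4% in LI. The LI and pancreas libraries were the lowest in both shares. Within the counts near starts the 90 regions held 0.973% and 0.889% in BM, 0.760% and 0.907% in SI, 0.787% and 0.845% in pancreas, 0.829% and 0.859% in lung and 0.773% and 0.761% in LI. BM replicate 1 was the highest, but BM replicate 2 lay below SI replicate 2.

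**Figure D4:**
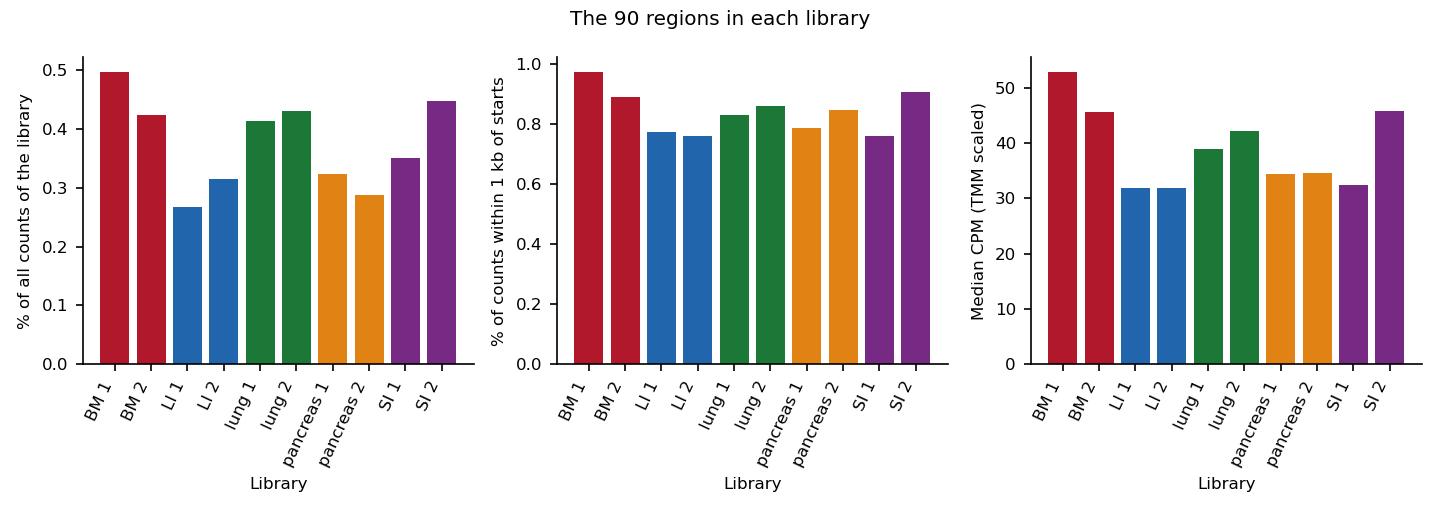
Share of all counts (left), share of the counts within 1 kb of starts (middle) and median CPM (right) of the 90 regions in each of the 10 libraries, as bars from 0 coloured by tissue. LI and pancreas are low in the left panel, at 0.267% to 0.323%, and the tissues are closer together in the middle panel, at 0.760% to 0.973%.

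When the libraries were scaled on the regions near starts alone, 14 of 90 regions (15.6%) were called over the tissues, against 19.9% of the other regions near starts. BM was then higher than LI in 24 regions and lower in 1, and the median was 0.39, while the other regions near starts had one of -0.010 and were higher in BM in 6.90%. The medians against lung, pancreas and SI were 0.21, 0.26 and 0.22, beside 0.016, 0.0055 and -0.0055. With trends of GC content and width removed from each library 23 regions (25.6%) were called over the tissues. The same call was made for 22.1% of the other regions near starts and 43.2% of all regions. Higher in BM than in LI were 37 regions (median 0.48), beside 11.9% of the other regions near starts (median 0.11) and 14.0% of all regions. Library size alone moved the median of all regions to -0.20 for BM against SI and -0.17 for BM against lung, where the 90 regions had medians of 0.18 and 0.11. In each of the 6 scalings the median of the 90 regions was above 0 in all 4 comparisons of BM and above that of the other regions near starts.

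**Figure D5:**
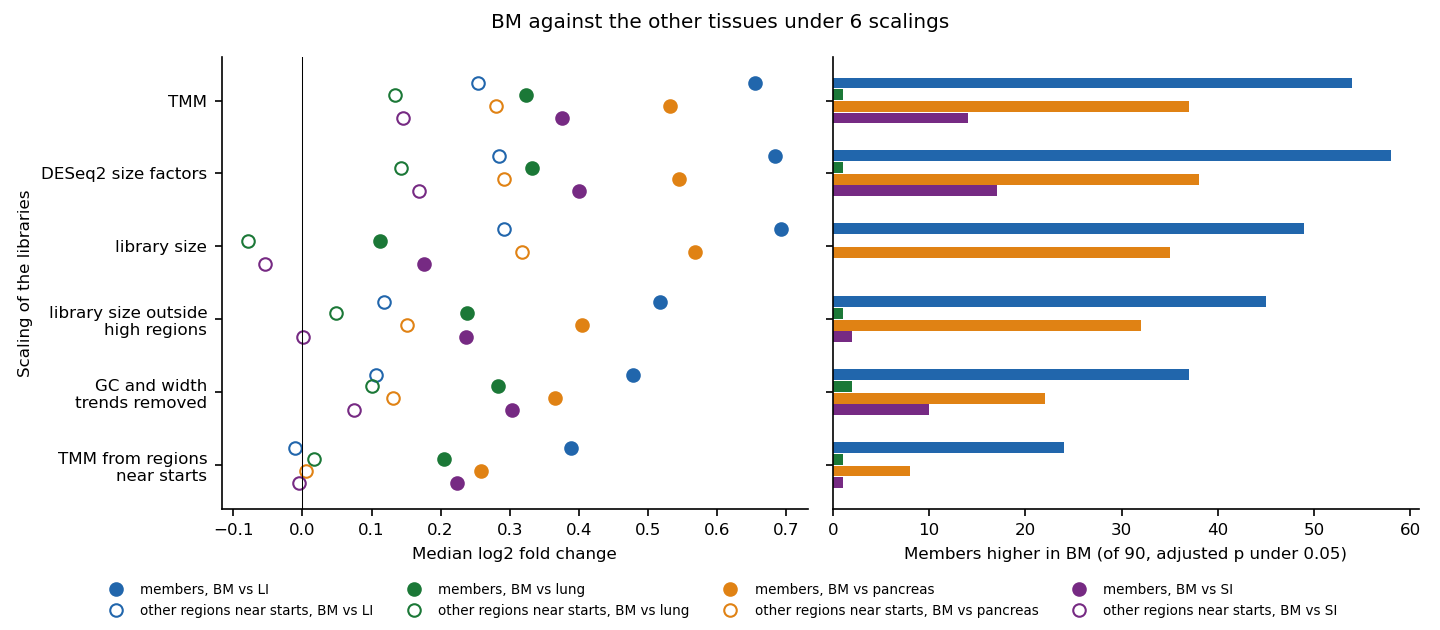
BM against LI, lung, pancreas and SI under 6 scalings of the libraries (y axis). The left panel gives the median log2 fold change of the 90 regions (filled) and of the other regions within 1 kb of a start (open), and the right panel the number of the 90 higher in BM at an adjusted p under 0.05, which for LI ran from 24 to 58.

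Promoters of other genes of protein synthesis were also higher in BM than in LI by the median, and by less than the 90 regions. Of 51 regions of 44 translation factor and related genes 25 were higher in BM than in LI and 0 lower, with a median log2 fold change of 0.54, and 17 (33.3%) were called over the tissues. Eef2, which moves the ribosome along the mRNA, measured 42.2 and 31.3 CPM in BM, 14.6 and 13.3 in LI and 27.1 and 41.3 in SI, and Eif4a1, a helicase that opens mRNA for scanning, 151 and 117 in BM and 59.4 and 71.4 in LI. Of 64 regions of 57 ribosome biogenesis genes 25 were higher in BM than in LI (median 0.47) and 16 (25.0%) were called over the tissues. Bysl and Utp6, assembly factors of the small subunit, had the smallest p, and Bysl measured 55.7 and 57.9 CPM in BM and 27.8 and 26.9 in LI. Of 85 regions of 78 mitochondrial ribosomal protein genes 25 were higher in BM (median 0.45) and 26 (30.6%) were called over the tissues, led by Mrpl49 and Mrpl54. Mrpl49 measured 66.4 and 48.7 CPM in BM and 23.5 and 18.8 in LI. The share of cytosolic ribosomal protein regions higher in BM than in LI, 60.0%, lay above the 49.0%, 39.1% and 29.4% of these lists, and the lists were not tested against each other. In BM against pancreas the median of the translation factor list, 0.55, was not below that of the 90 regions, 0.53. The biogenesis and mitochondrial lists had medians of 0.39 and 0.37 in that pair. In the other regions near starts 21.9% were higher in BM than in LI and 29.1% were called over the tissues, and in all regions 12.6% and 44.2%, so the shares of these lists called over the tissues were near or below the background.

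One marker list of other cells moved with BM. The summed level at the promoters of 2 erythroid genes (Hbb-bs and Hba-a1, while Klf1 had no region) was 24.7 and 14.0 CPM in BM and 2.195 to 4.77 CPM in the other 8 libraries, and it was higher in the BM replicate with the higher ribosomal protein promoters. Its part in the result was not tested. The B cell markers (0 of 4 genes) and the mast cell and basophil markers (0 of 4) had no region. T cell markers had a region for 2 of 5 genes at 5.98 to 13.3 CPM, without Cd3d, Cd4 and Cd8a, and were lowest in BM. Myeloid markers had one for 2 of 5 genes at 18.5 to 39.8 CPM and stood at 26.6 and 26.8 in BM. Epithelial markers (3 of 4 genes, without Krt8) ran from 9.89 to 30.7 CPM and were lowest in BM, and the single acinar marker with a region (of 3, without Cpa1 and Ptf1a) ran from 16.6 to 39.2 CPM, with 39.2 and 28.5 in BM. Lung epithelial (0 of 2) and endothelial (0 of 2) markers had no region.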

How the data were processed

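ATAC-seq reads are cut sites of the Tn5 transposase and mark open chromatin. According to the methods of the study and the submitters' processing notes, the authors checked reads with FastQC 0.11.9, aligned them to mm10 with Bowtie2 2.2.9, kept uniquely mapped reads with SAMtools 1.8, called peaks with MACS2 2.1.1, kept peaks found in both replicates, merged them with HOMER and deposited raw counts per region from bedtools. How duplicates, mitochondrial reads and the Tn5 offset were handled is not given in the sources used here.

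From the counts, 49981 of 50039 regions with at least 1 count were fitted in edgeR 4.0.16 (R 4.3.3) with TMM factors and tissue as the only term, by the quasi-likelihood F test over the 5 tissues and in the 10 pairs, with Benjamini-Hochberg adjustment over all regions in each and a threshold of 0.05. Replicate labels say nothing of separate days, so p-values measure the spread between pooled libraries. CPM are TMM scaled, and log2 CPM used a prior count of 2. The script was tested on simulated counts. Regions were matched to RefSeq starts, and sequences and promoters (250 bases before to 50 after the start) come from RefSeq tables of GRCm38.p6, which held 62 of the genes and 64 of the regions. Motif letters were searched on both strands. A pyrimidine tract is a C within 5 bases of the start followed by at least 4 bases of C or T, and it can lie inside a longer run.

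Genes were named by rule. It took the 10 smallest p over the tissues and the called region with the largest change in each pair. Also taken were the 5 highest and 5 lowest genes by CPM, and the 4 most even regions above the median CPM. Rplp0, Rplp1, Rplp2 and Rpsa were added, with the paralogs, retrocopies and other proteins that fit the naming pattern. The last were the regions that differed from each other tissue in 1 direction and the 2 smallest p of each pathway list. The members, lists and rules were chosen with earlier results of these data known. Alternatives were other scalings, DESeq2 1.42.0, fits to the 4 libraries of a pair, a replicate block, removal of GC and width trends, a filter of 10 counts in 2 libraries, narrower member rules and leaving out each library. Counting library size outside the 44 regions that hold over 0.1% of a library, and keeping subunit proteins only, were chosen after seeing the data. A few genes that the rules take are not reported here, although they enter the counts and medians.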

Additional observations from a re-analysis of the deposited data

How the results depend on the processing

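The counts of regions called depended on scaling and on single libraries, and the cause was not tested. Under the alternatives 196 counts stayed within 1.5 times the reported one and 126 did not. Library size alone gave 3 regions for BM against SI (16 reported), 18 for LI against SI (4), 14 for LI against lung (1), 16 for pancreas against SI (3) and 1 higher in a single tissue than in each other (10). DESeq2's size factors gave 3 lower in a single tissue (1). TMM on regions near starts gave 14 over the 5 tissues (42), 25 for BM against LI (54), 3 for BM against SI, 2 for BM against lung (1), 10 for BM against pancreas (38), 2 for LI against SI, 0 for LI against lung, 1 for pancreas against SI and 1 higher in a single tissue. Removing GC and width trends gave 23 over the tissues, 2 for BM against lung, 22 for BM against pancreas, 0 for LI against lung and 0 lower in a single tissue. DESeq2 on 10 libraries gave 25 for BM against SI, 3 for BM against lung, 10 for LI against SI, 2 for LI against lung and 3 lower in a single tissue. Library size outside the highest regions, chosen after seeing the data, gave 4 for BM against SI, 2 for BM against lung, 0 for LI against lung, 5 higher and 3 lower in a single tissue. On 4 libraries edgeR gave 1 for BM against SI, 10 for BM against lung, 1 for LI against SI, 22 for LI against lung, 1 for lung against pancreas (0), 1 for pancreas against SI and 3 lower in a single tissue, and DESeq2 gave 3, 11, 1, 18, 1, 1 and 2 in that order. Members within 500 bp of a start (85 regions) and 1 region per gene (83) each gave 0 lower in a single tissue, and an adjusted p in each contrast gave 0 higher and 0 lower.

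The replicate numbers did not pair the libraries, with correlations of deviations between -0.22 and 0.20. The replicate block gave 2 for BM against lung, 0 for LI against lung, 52 for BM against LI, 12 for BM against SI, 38 for BM against pancreas and 41 over the tissues. The replicate block with GC and width trends removed gave 21 over the tissues, 35 for BM against LI, 20 for BM against pancreas, 2 for BM against lung, 2 for LI against SI, 0 for LI against lung, 1 for pancreas against SI, 6 higher and 0 lower in a single tissue.

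With 1 library left out, which leaves a tissue with a lone sample assumed to vary like the others, the counts ran from 7 to 56 over the tissues, 12 to 62 for BM against LI, 0 to 48 for BM against pancreas, 0 to 10 for BM against lung, 1 to 39 for BM against SI, 0 to 17 for LI against SI, 0 to 5 for LI against lung, 0 to 0 for LI against pancreas, 0 to 9 for lung against SI, 0 to 1 for lung against pancreas, 0 to 10 for pancreas against SI, and 1 to 25 higher and 0 to 4 lower in a single tissue. Of 830 values of 35 named regions 756 kept direction and side of the threshold, 65 lost the threshold and 7 gained it. Both reversals were in BM against LI without BM replicate 1, where Rpl4 ran from -0.054 to 1.15 and Rpl7l1 from -0.031 to 0.73 over the left-out libraries. Of 240 medians 2 changed sign, both for lung against SI. The shallowest library had a median of 320 counts over the 90 regions.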
